A study of Mus musculus with 12 samples.

Results

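The 85 genes described here encode the proteins of the cytosolic ribosome. They are the genes of the count table whose symbol is Rpl or Rps followed by a number, with or without an ending such as a, l, x or y, and without the entries named as pseudogenes. The rule found 85 of 55335 genes, 50 of the large and 35 of the small subunit, and a few of them are paralogs or single-exon copies of the main gene. The libraries were made from polyadenylated RNA of sorted bone marrow hematopoietic stem cells (HSCs) of C57B6 mice. Ythdc1Δ/Δ stands for Ythdc1fl/fl Mx1-Cre mice given pIpC, in which YTHDC1, a nuclear reader of N6-methyladenosine, is deleted, and Ythdc1+/+ for Ythdc1+/+ Mx1-Cre mice given pIpC. Per the study's methods the donors were 8 weeks old and received 5 injections of 300 μg pIpC, so both genotypes carry the Cre transgene and the interferon-inducing treatment. Mx1-Cre is induced by interferon and is active in many cell types besides HSCs. Each genotype has 6 libraries under 3 title numbers, WT178, WT180 and WT207 (the Ythdc1+/+ samples) and KO176, KO177 and KO209 (the Ythdc1Δ/Δ samples), and whether such a number stands for a mouse is not stated in the labels. The 2 libraries of a number were summed to 1 sample, giving 3 samples a genotype and 42098649 to 48095239 counts a sample, and p-values measure the spread between these samples only.

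Each ribosome holds a copy of nearly every ribosomal protein, and the large and small subunits are assembled in the nucleolus and exported separately. The mRNAs of these proteins begin with a tract of pyrimidines at the cap, the terminal oligopyrimidine (5'TOP) motif, through which mTOR and LARP1 set their translation together. HSCs are known for a low rate of protein synthesis, and loss of an allele of several ribosomal proteins causes Diamond-Blackfan anaemia, a failure of red cell production.

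Ythdc1 itself was at 56.8, 69.6 and 69.6 counts scaled to CPM (counts for every 1000000 of the library) in KO176, KO177 and KO209 and at 76.0, 72.6 and 92.5 CPM in WT178, WT180 and WT207. The genotypes did not overlap, and the difference did not pass the test (log2 difference -0.30 ± 0.13 SE, adjusted p = 0.521). The count covers all exons of the gene, so it does not check the deletion. All 13 HSC markers were detected in every sample, with a summed level of 1034 to 1066 CPM in Ythdc1Δ/Δ and 1305 to 1406 CPM in Ythdc1+/+. The 20 markers of granulocytes and their precursors summed to 13650.1 to 25301 CPM in Ythdc1Δ/Δ and 11497 to 14760.0 CPM in Ythdc1+/+, and the 16 markers of B cells to 1635 to 3376 CPM against 753 to 958 CPM. The 12 erythroid markers summed to 784 to 1412 CPM in Ythdc1Δ/Δ and 1477 to 1710.0 CPM in Ythdc1+/+, the 14 endothelial and stromal markers to 195 to 203 CPM against 163 to 188 CPM, and the 10 macrophage markers to 95.5 to 211 CPM against 86.0 to 128 CPM, with Vsig4 the only marker of these lists at 0 in a sample. A sum follows its most abundant genes, so the genes were also counted singly, by the sign of the log2 difference between genotypes. In Ythdc1Δ/Δ, 12 of 13 HSC markers were lower (median -0.39), and 20 of 20 granulocyte (median 0.43), 15 of 16 B cell (0.70), 7 of 9 tested macrophage (0.62) and 10 of 12 erythroid markers (0.29) were higher, none of them called. The erythroid sum went the other way with Car2, a carbonic anhydrase, at 1088 ± 334 CPM in Ythdc1Δ/Δ and 1562 ± 121 CPM in Ythdc1+/+ (SD, n = 3 each). Of the 13 endothelial and stromal markers tested, 11 were higher (median 0.72) and 3 rose in Ythdc1Δ/Δ, where 0.137% of all genes tested were called in either direction. These were Lepr, the leptin receptor (log2 difference 2.58 ± 0.32 SE, adjusted p = 0.0218), Adipoq, which encodes adiponectin (3.16 ± 0.40 SE, adjusted p = 0.0218), and Sparc, a matrix protein (1.78 ± 0.26 SE, adjusted p = 0.0456). All 3 were under 10 CPM in every sample. The part of these markers in the results was not tested, and in bulk samples fewer cells of a type cannot be told apart from less RNA per cell.

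The sequence at the start of transcription is where a 5'TOP motif would lie. RefSeq entries (build GRCm38.p6) gave a promoter for 61 of the 85 genes, 73 promoters in all. The windows printed here run from 10 bases before the annotated start to the 20th base of the transcript, so that the start is base 11 of each line, and the capitals mark the longest unbroken run of C and T that begins no later than 5 bases after the start base and ends no earlier than 5 bases before it. They are shown for some of the genes described below, from the comparison of genotypes (Rps27, Rpl7a, Rpl39l, Rps19, Rpl5 and Rpl4) and of title numbers (Rps27l and Rpl35). Other genes with a p as small between genotypes, such as Rpl21, are not shown.

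Rps27 (chr3:90213629-90213658, - strand): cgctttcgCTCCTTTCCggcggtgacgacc
Rps27l (chr9:66946076-66946105, + strand): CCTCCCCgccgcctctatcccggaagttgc
Rpl7a (chr2:26910797-26910826, + strand): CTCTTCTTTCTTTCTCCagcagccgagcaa
Rpl35 (chr2:39005112-39005141, - strand): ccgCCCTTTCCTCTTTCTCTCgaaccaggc
Rpl39l (chr16:10170218-10170247, + strand): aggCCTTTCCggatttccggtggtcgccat
Rps19 (chr7:24884582-24884611, + strand): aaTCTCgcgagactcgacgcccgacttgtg
Rpl5 (chr5:107900518-107900547, + strand): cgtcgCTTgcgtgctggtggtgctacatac
Rpl4 (chr9:64173377-64173406, + strand): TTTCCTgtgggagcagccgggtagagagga

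Rps27, Rpl7a and Rpl35 carried long tracts at this position, whereas the annotated starts of Rps19 and Rpl5 had short ones. A run of at least 8 pyrimidines was present in 22 of 73 promoters of ribosomal protein genes (30.1%) and in 2831 of 32851 promoters of all genes (8.62%). A gap of a few bases between the annotated and the true start hides such a run, so a short run here says only that these letters are not at the annotated start. In the 300-base promoters (250 bases before to 50 after the start) the motif CCGGAAG, searched on both strands, was found in 25 of 73 (34.2%) against 8.86% of all promoters. AAGATGG was found in 12 (16.4%) against 6.34%, TATAAA in 7 (9.59%) against 13.6%, and CCAAT in 20 (27.4%) against 37.4%.

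The ribosomal protein genes were among the most abundant transcripts of the samples. Levels were compared between genes as TPM, counts divided by the exon length given in the table and rescaled to the same sum in every sample, and 72 of the 85 genes had a mean of at least 100 TPM over the 6 samples. The median of the 83 genes that passed the filter on low counts was 541 TPM, against 7.41 TPM over all 18234 genes tested, and the range from the 10th to the 90th percentile was 63.7 to 1798 TPM. Among the highest were Rpl13 (2688 ± 341 TPM, SD, n = 6), Rpl32 (2678 ± 377 TPM), Rpl36 (2487 ± 353 TPM) and Rps3a1 (2449 ± 146 TPM). The means of Rpl13, Rpl32 and Rpl36 differed from each other by less than the SD of each. The order depends on the exon length used. Rpl36 has 383 exon bases and a mean of 359 CPM, and Rps19, at 683 TPM, has 4685 exon bases and 1200 CPM. Among the genes outside the symbol pattern, Rplp0, which encodes the base of the ribosomal stalk, reached 3328 TPM and Rack1, a signalling scaffold on the small subunit, 469 TPM.

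A few genes of the core ribosome were listed at levels far under those of their partners. Rpl24 was at 5.57 ± 0.700 TPM, Rps10 at 6.88 ± 0.360 TPM, Rpl13a at 27.8 ± 2.84 TPM and Rps12 at 67.5 ± 6.67 TPM. Rpl24 (mm10 chr16:55966275-55971435) shares 47.0% of its exon bases with another annotated gene, Gm28037. Rps10 (chr17:27630418-27636669) shares 28.7% with RPS10-NUDT3 and Gm15420, and Rpl13a (chr7:45125558-45128761) shares 35.4%, most of it with Gm45713. Read pairs on exons of more than 1 gene, and pairs that align to more than 1 place, were left out of the deposited counts. Of the 100-base stretches of Rps12 transcripts in GENCODE M21, 71.1% also occur in transcripts of other genes. Over all 85 genes, 37 share exon bases with another gene, 12 share over 20% of them, and 37 have over 50% of their 100-base stretches in another gene's transcripts. Levels of these genes are therefore uncertain. Over the 83 genes tested the rank correlation (Spearman) of TPM was -0.02 with the share of overlapped exon bases and -0.03 with the share of repeated stretches, so neither share ordered the levels across the family. Exon lengths include retained-intron isoforms, which lowers the TPM of genes such as Rps19 with 4685 exon bases.

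The paralogs spanned the whole range. Rps27l, which is closely related to Rps27, was at 1006 ± 97.7 TPM, Rpl7l1 at 210.1 ± 11.9 TPM, Rps4l at 77.2 ± 14.3 TPM and Rpl22l1, the partner of Rpl22, at 62.7 ± 7.61 TPM. Rpl39l, a paralog of Rpl39 best known from testis, was at 1.39 ± 1.25 TPM and Rpl3l, the striated-muscle paralog of Rpl3, at 0.898 ± 0.512 TPM. Rpl10l, the testis paralog of Rpl10, was detected in KO176 and in WT178 only and was not tested, and the single-exon gene Rps12l1 was without a read in every library.

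The share of all counts that fell on the 85 genes lay between 3.26% and 4.82% and overlapped between genotypes. It was 3.88%, 4.16% and 3.45% in KO176, KO177 and KO209 and 3.91%, 4.44% and 4.20% in WT178, WT180 and WT207. The means were 3.83% ± 0.357 (SD, n = 3) and 4.18% ± 0.263 (SD, n = 3), and KO209 was the lowest of all. The 2 libraries of WT180 held 4.82% and 4.03%, and those of KO177 3.87% and 4.47%, so that libraries of the same number differed by more than the genotype means. The subunits moved together, with 1.96% (large) and 1.49% (small) in KO209 against 2.50% and 1.94% in WT180.

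**Figure D1:**
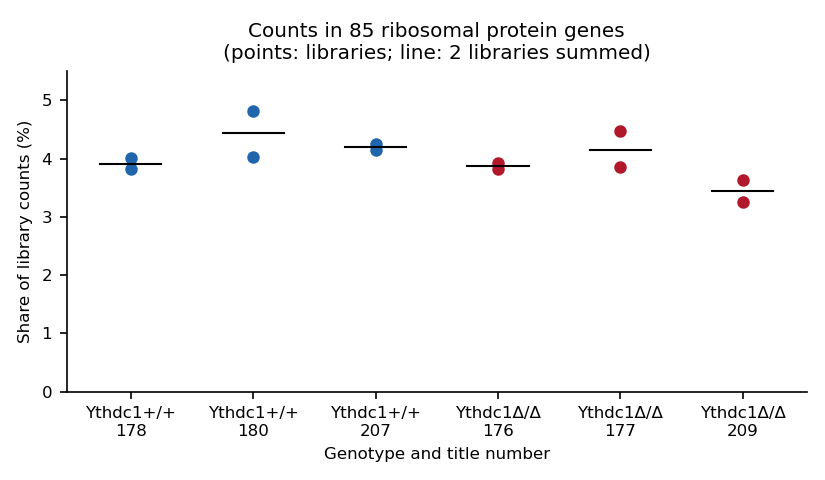
Share of library counts, in percent, on the 85 ribosomal protein genes for each title number, with the 2 libraries as points (Ythdc1+/+ blue, Ythdc1Δ/Δ red) and their sum as a line. The genotypes overlap, KO209 is lowest at 3.45%, and the libraries of WT180 and KO177 lie far apart.

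No ribosomal protein gene passed the test between genotypes. Of the 83 genes tested in edgeR, 0 had an adjusted p under 0.05, against 0.137% of all genes tested. At an unadjusted p under 0.05, 1 was higher and 3 were lower in Ythdc1Δ/Δ, where 4.28% and 5.2% of all genes were, and DESeq2 called 1, Rpl39l. The median log2 difference was -0.04, with 30 genes higher and 53 lower, beside -0.00620 for all genes. It lay between -0.10 and -0.04 under the other scalings and at 0.00279 with the trend of exon length removed. The 49 large-subunit genes had a median of -0.04 and the 34 small-subunit genes of -0.06. In 3 genes every Ythdc1Δ/Δ sample was above every Ythdc1+/+ sample and in 4 every one was below, 7 of 83 in all, where 7.75% and 8.59% of all genes tested were separated in this way.

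Rps27, a small-subunit protein with a zinc finger and one of the Diamond-Blackfan anaemia genes, had the smallest p among genes at 10 CPM or more. Its level was 186, 235 and 208 CPM in KO176, KO177 and KO209 and 264, 314 and 273 CPM in WT178, WT180 and WT207. All Ythdc1Δ/Δ samples lay under all Ythdc1+/+ samples, and the difference did not pass the correction over all genes (log2 difference -0.44 ± 0.13 SE, adjusted p = 0.316). It was called only where the 12 libraries were counted as separate samples (adjusted p = 0.0299). Of its 100-base stretches, 98.4% also occur in other genes. Its paralog Rps27l was at 383, 326 and 232 CPM in the Ythdc1Δ/Δ and 326, 321 and 276 CPM in the Ythdc1+/+ samples, in the same order, with overlapping genotypes (log2 difference 0.03 ± 0.18 (SE), adjusted p = 0.974).

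Rpl21, a large-subunit protein, was at 201, 245 and 201 CPM in the Ythdc1Δ/Δ and 279.6, 318 and 241 CPM in the Ythdc1+/+ samples, in the same order. The lowest Ythdc1+/+ value, from WT207, lay just under the highest Ythdc1Δ/Δ value, from KO177 (log2 difference -0.38 ± 0.14 (SE), adjusted p = 0.427). Rps19, the most often mutated Diamond-Blackfan anaemia gene, was at 1092, 1245 and 901 CPM in the Ythdc1Δ/Δ and 1245, 1425 and 1294 CPM in the Ythdc1+/+ samples, in the same order. KO177 and WT178 were level to the rounded value, so the genotypes met without crossing (log2 difference -0.29 ± 0.15 (SE), adjusted p = 0.581). Rps18, a protein of the small-subunit head, was at 988, 1141 and 829.8 CPM in the Ythdc1Δ/Δ and 1078, 1267 and 1099 CPM in the Ythdc1+/+ samples, in the same order, and the genotypes overlapped (log2 difference -0.22 ± 0.15 (SE), adjusted p = 0.684). Rpl17 (adjusted p = 0.618), Rpl35 (0.649) and Rpl37a (0.657) had log2 differences of -0.27 to -0.20, none of which passed.

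In the other direction, Rpl7a, which is a large-subunit protein whose gene hosts snoRNAs, was at 77.7, 109.5 and 72.0 CPM in the Ythdc1Δ/Δ and 57.9, 66.7 and 61.7 CPM in the Ythdc1+/+ samples, in the same order. Every Ythdc1Δ/Δ sample was above every Ythdc1+/+ sample, and the difference did not pass (log2 difference 0.48 ± 0.16 (SE), adjusted p = 0.368). Rpl5, which binds the 5S rRNA and restrains MDM2 together with Rpl11, was at 1035, 840.4 and 731 CPM in the Ythdc1Δ/Δ and 729, 729 and 707 CPM in the Ythdc1+/+ samples, in the same order. KO176 was far above the rest, and KO209 lay close to WT178 and WT180 (log2 difference 0.27 ± 0.15 (SE), adjusted p = 0.607). Rpl4, a protein that lines the exit tunnel, was at 1672, 1725 and 1585 CPM in the Ythdc1Δ/Δ and 1442, 1580.1 and 1428 CPM in the Ythdc1+/+ samples, in the same order, with KO209 just above WT180 (log2 difference 0.16 ± 0.13 (SE), adjusted p = 0.721). Rpl13a, Rpl29, Rpl6l and Rpl7l1 followed with log2 differences of 0.09 to 0.15, and their adjusted p-values were 0.751 or higher. Of the 100-base stretches of Rpl7a and Rpl5, 73.5% and 73.2% occur in other genes, against 5.14% for Rpl4.

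Rpl39l showed the widest separation of genotypes at a very low level. It was at 0.0947, 0.308 and 0.0202 CPM in the Ythdc1Δ/Δ and 1.06, 0.706 and 0.427 CPM in the Ythdc1+/+ samples, in the same order, which corresponds to 4, 14 and 1 counts in Ythdc1Δ/Δ and 44, 34 and 20 counts in Ythdc1+/+. The difference was -2.35 ± 0.60 (SE) on the log2 scale (adjusted p = 0.270 in edgeR), and DESeq2 gave an adjusted p of 0.0483. Rpl3l was the other paralog near the detection limit, at 1.04, 0.725 and 0.344 CPM in the Ythdc1Δ/Δ and 0.336, 0.851 and 0.128 CPM in the Ythdc1+/+ samples, in the same order (log2 difference 0.63 ± 0.60 (SE), adjusted p = 0.778). Rpl22l1 (log2 difference -0.18 ± 0.13 (SE), adjusted p = 0.686), Rps4l (log2 difference -0.19 ± 0.20 (SE), adjusted p = 0.803) and Rpl7l1 (log2 difference 0.09 ± 0.12 (SE), adjusted p = 0.853) overlapped between genotypes. Of 20 members known as Diamond-Blackfan anaemia genes, 3 were higher and 17 lower in Ythdc1Δ/Δ with a median of -0.08, and 0 passed the test. Among all 83 genes 30 were higher and 53 lower. With KO176, KO177, WT178 and WT180 alone, 11 of the 20 were higher (median 0.03), and in KO209 against WT207 19 were lower (median -0.35).

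**Figure D2:**
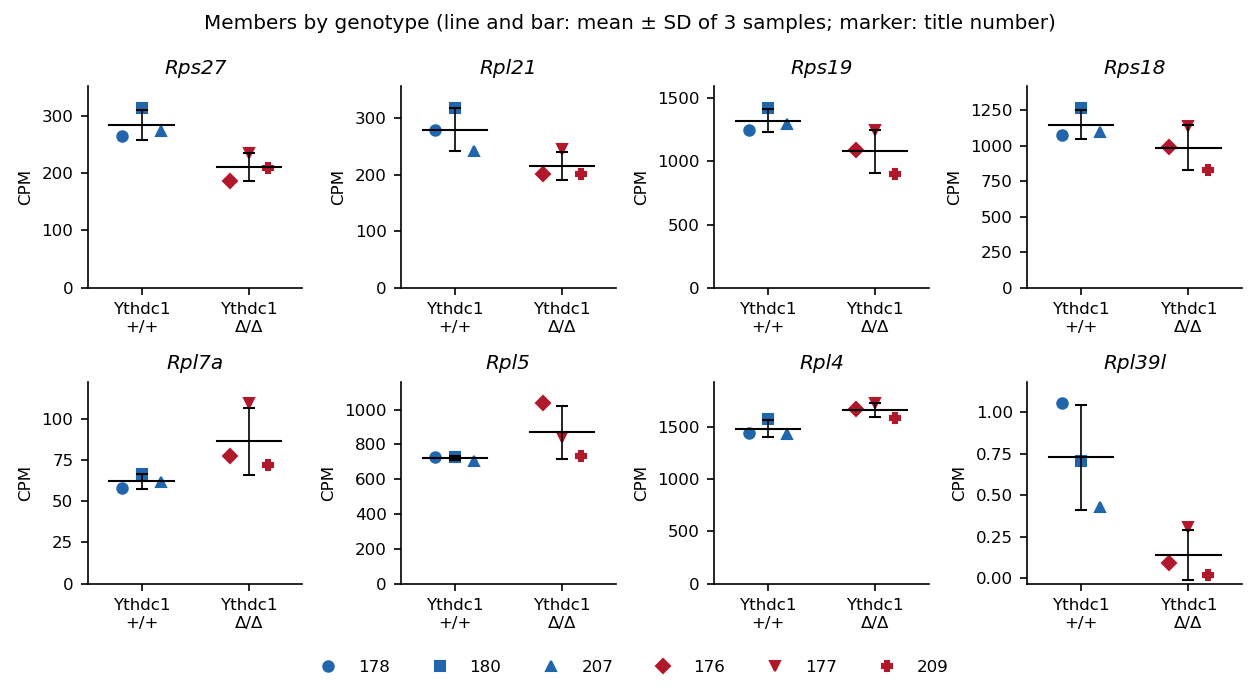
Levels in CPM, on axes from 0, of 8 ribosomal protein genes in the 3 Ythdc1+/+ (blue) and 3 Ythdc1Δ/Δ (red) samples, with the mean and SD as a line and a bar and the title number as the marker. Rps27 and Rpl39l lie lower and Rpl7a, Rpl5 and Rpl4 higher in every Ythdc1Δ/Δ sample, Rps19 meets at KO177 and WT178, Rpl21 and Rps18 overlap, and none passed the test.

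The title numbers separated the ribosomal protein genes more than genotype did. In WT207 and KO209, taken against KO176, KO177, WT178 and WT180 with genotype as a term, 82 of the 83 genes were lower and the median log2 difference was -0.26, beside 0.00393 for all genes. None passed at an adjusted p under 0.05 in edgeR (smallest 0.132, for Rpl3l at -1.65 ± 0.48 SE), where 0.378% of all genes tested did, and DESeq2 called 0 as well. At an unadjusted p under 0.05, 30 were lower and 0 higher, against 10% and 8.94% of all genes. Both samples lay under the other 4 in 24 genes and above them in 0, where 14% and 12.7% of all genes did so. With totals as the only scaling the median of all genes rose to 0.15 and that of the members was -0.11, 66 lower and 17 higher, so the size of the shift depends on the scaling.

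Among genes at 10 CPM or more, Rps27l, with the levels given above, had the smallest p (log2 difference -0.41 ± 0.13 (SE), adjusted p = 0.142). Rpl35, a large-subunit protein at the exit tunnel, followed with 546, 531 and 359 CPM in the Ythdc1Δ/Δ and 603, 603 and 527 CPM in the Ythdc1+/+ samples, in the same order (-0.39 ± 0.12 (SE), adjusted p = 0.146). In both genes KO209 was the lowest and WT207 the next lowest. Rps13 (-0.38 ± 0.12 (SE), adjusted p = 0.158) and Rps14 (-0.36 ± 0.12 (SE), adjusted p = 0.164) had the same order. Rpl13a was the single gene on the higher side, at 0.01 ± 0.13 (SE).

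**Figure D3:**
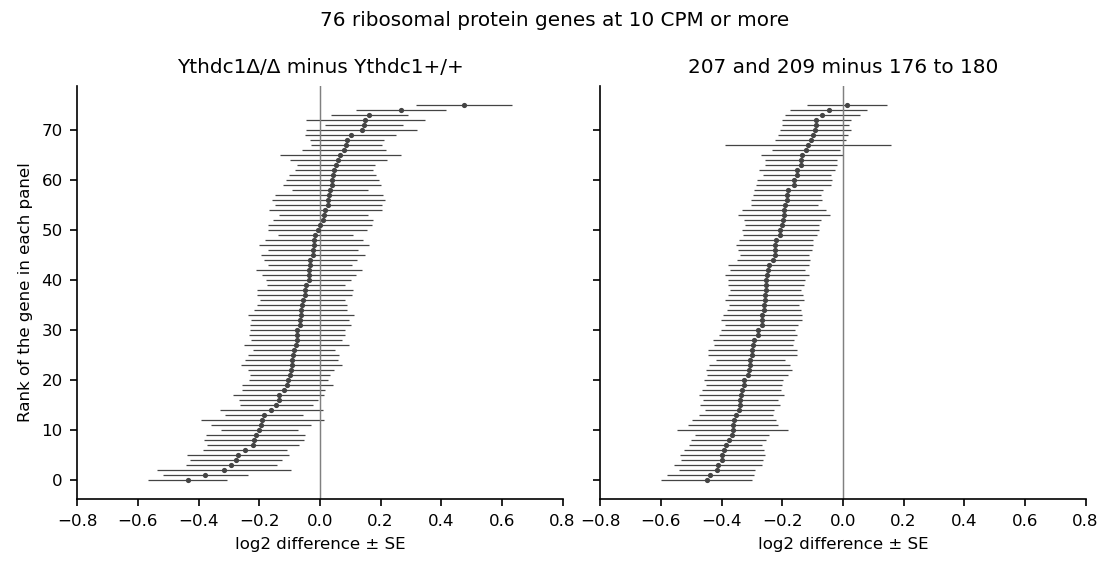
Log2 difference with its SE for the 76 ribosomal protein genes at 10 CPM or more, ordered within each panel, between genotypes (left) and between WT207 and KO209 and the other 4 samples (right). The values lie on both sides of 0 on the left and almost all under 0 on the right.

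The shift was larger in KO209. It was the lowest of the 6 samples in 71 of 83 genes, as it was in 19.9% of all genes tested, and it lay under both other Ythdc1Δ/Δ samples in 78, where 38.3% of all genes did. Against the mean of KO176 and KO177 the median log2 difference was -0.44, with 81 genes lower. WT207 lay under both other Ythdc1+/+ samples in 34 of 83 genes, where 34.9% of all genes did. Its median against their mean was -0.07, with 75 genes lower, beside a median of -0.00347 for all genes tested. Without KO209 the median of the range was -0.08, and without WT207 it was -0.46, each with 1 sample left on that side. The difference between genotypes turned with KO209. Without KO209 the median was 0.09, with 62 of 83 genes higher in Ythdc1Δ/Δ, and among KO176, KO177, WT178 and WT180 it was 0.06, with 56 higher. KO209 minus WT207 gave a median of -0.32, with 76 lower, and has no replicate. In an interaction test of genotype and range in edgeR, added after the data were seen, 0 of 83 genes passed. At an unadjusted p under 0.05 the interaction was negative in 12 genes and positive in 0, against 1.64% and 1.34% of all genes.

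**Figure D4:**
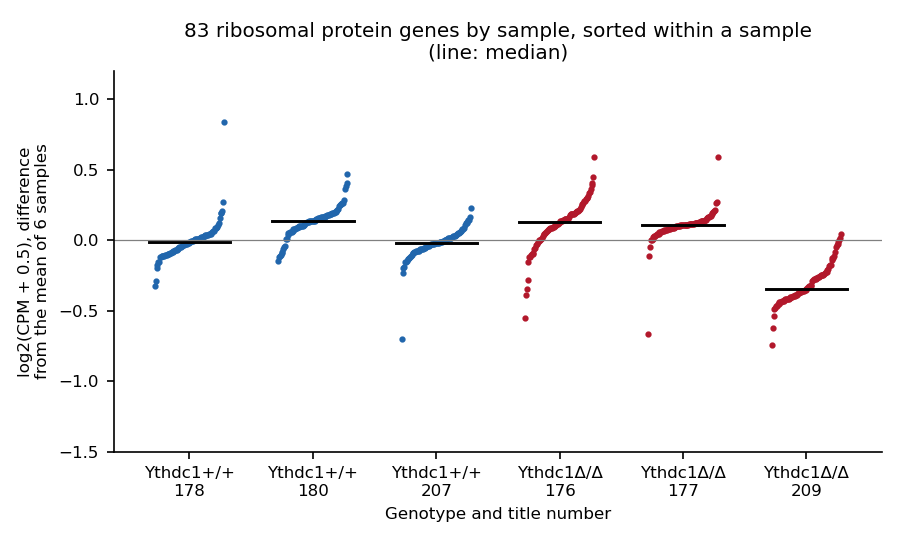
Difference of each of the 83 ribosomal protein genes from its mean over the 6 samples, on the log2(CPM + 0.5) scale, sorted within each sample (Ythdc1+/+ blue, Ythdc1Δ/Δ red) with the median as a line. KO209 has a median of -0.35, and the other 5 lie between -0.02 and 0.14.

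Marker lists were read in the same comparison. HSC markers were higher in WT207 and KO209 in 11 of 13 cases (median log2 difference 0.34, 0 called), among them Mllt3 (0.68 ± 0.13 SE, adjusted p = 0.0580), a regulator of HSC self-renewal. The 2 lower ones were Ly6a, with the largest change of the list (-1.32 ± 0.39 SE, adjusted p = 0.209), and Slamf1 (-0.28 ± 0.17 SE, adjusted p = 0.393). B cell markers were split, 7 higher and 9 lower (median -0.10, 0 called). Their sum was the highest in KO209, at 3376 CPM, of which Ighm, the immunoglobulin M heavy chain, made 2771 CPM, and WT207, at 958 CPM, lay within the 753 to 1932 CPM of the others. Of the 12 erythroid markers, 8 were higher (median 0.70). In edgeR 5 of these were called at an adjusted p under 0.05 (smallest 0.0151), where 0.378% of all genes tested were called in either direction. Of the 20 granulocyte markers, 14 were higher (median 0.20, 0 called), while their sum was 11497 to 13650.1 CPM in WT207 and KO209 against 13435 to 25301 CPM. The range difference also varied with exon length. Among genes that are not members the median was -0.11 for under 1000 exon bases and 0.07 for 4000 or more. The members stood at -0.31 (16 genes) and -0.27 (6 genes) in these classes, and with the trend of exon length removed their median was -0.21. Their part in the shift was not tested.

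The ribosomal protein genes varied as a block, also between libraries of the same number. The mean pairwise Pearson correlation over the 12 libraries was 0.585 for the 83 genes, 0.649 for the small and 0.540 for the large subunit, and 0.00365 over all genes tested. Libraries of a number are not independent, so these values are a description. The 77 mitochondrial ribosomal protein genes tested had 0.552 and the 127 ribosome biogenesis factors 0.325. In 66 of 83 genes the correlation with the mean of the other core members, those that are neither single-exon copies nor paralogs, was over 0.5 (median 0.891). The genes that followed it least were Rps3a3 (-0.14), Rpl24 (-0.06) and Rpl32l (0.08), all under 10 CPM. Of the genes at 10 CPM or more, Rpl7l1 (0.22), Rpl13a (0.24), Rpl4 (0.25), Rpl26 (0.28), Rpl5 (0.30) and Rpl17 (0.33) had the lowest values, and Rpl7a (0.38) and Rps27 (0.42) were also under 0.5.

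Between the libraries of a number the whole family shifted. In WT180, 79 of 83 genes were higher in its first library, by a median of 0.25 on the log2 scale. In KO177, 71 were higher in the second library, by 0.25, and in KO209, 80 were higher in the first, by 0.21. The other numbers differed by 0.06 to 0.08. These differences are larger in size than the median between genotypes. Genes that are not members and have under 1000 exon bases moved the same way in every number, by 0.02 to 0.11, and those with 4000 or more by -0.08 to -0.00388. The SD of log2 CPM between libraries of a number had a median of 0.14 over the 83 genes, and that between numbers of a genotype of 0.20, against 0.17 and 0.19 over all genes tested.

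Several other gene groups of the translation apparatus had positive medians between genotypes, and none of their genes was called. Of the 127 ribosome biogenesis factors, which process rRNA and assemble the subunits, 115 were higher and 12 lower in Ythdc1Δ/Δ, with a median log2 difference of 0.16. At an unadjusted p under 0.05, 17 were higher and 1 lower, read against the shares of all genes given for that rule. Among KO176, KO177, WT178 and WT180 alone 116 were higher (median 0.21), and in KO209 against WT207 74 were (median 0.06). Rrp12, an export factor of both subunits, was at 67.6, 58.2 and 59.1 CPM in the Ythdc1Δ/Δ and 43.6, 46.0 and 41.7 CPM in the Ythdc1+/+ samples, in the same order (0.49 ± 0.11 SE, adjusted p = 0.194). Nat10, which acetylates 18S rRNA, was at 75.7, 68.8 and 69.8 CPM in the Ythdc1Δ/Δ and 53.3, 51.0 and 53.8 CPM in the Ythdc1+/+ samples, in the same order (0.44 ± 0.10 SE, adjusted p = 0.220). In both the Ythdc1Δ/Δ samples lay above all Ythdc1+/+ samples, and neither passed. Heatr3, the nuclear import factor of RPL5, differed by 0.41 ± 0.10 (SE, adjusted p = 0.270) and Polr1b, a subunit of RNA polymerase I, by 0.38 ± 0.11 (SE, adjusted p = 0.286).

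Of 44 translation initiation factors 37 were higher in Ythdc1Δ/Δ (median 0.15), with Eif2s3x, the gamma subunit of eIF2, at 0.39 ± 0.13 (SE, adjusted p = 0.368). Of 17 elongation and termination factors 12 were higher (median 0.09), led by the recycling factor Abce1 at 0.31 ± 0.13 (SE, adjusted p = 0.491). The 13 other genes with 5'TOP mRNAs had a median of 0.12 and 11 higher, with Hnrnpa1, a splicing regulator, at 0.38 ± 0.13 (SE, adjusted p = 0.370). Among KO176, KO177, WT178 and WT180 alone the initiation, elongation and other 5'TOP medians were 0.18, 0.16 and 0.23. In KO209 against WT207 they were 0.01, 0.02 and -0.02. There 26 initiation factors were higher and 18 lower, 9 and 8 of the elongation factors, and 5 and 8 of the other 5'TOP genes. The 8 ribosomal proteins outside the symbol pattern divided evenly (median 0.01), and 49 of 77 mitochondrial ribosomal protein genes were higher (median 0.04). Among KO176, KO177, WT178 and WT180 alone, 7 of the 8 (median 0.10) and 66 of the 77 (median 0.11) were higher. In KO209 against WT207 all 8 were lower (median -0.25), and of the mitochondrial genes 20 were higher and 57 lower (median -0.18). The medians of these last groups changed sign with totals as the only scaling (-0.05 and -0.02), and that of the 8 also with upper quartile scaling, while those of the biogenesis, initiation, elongation and other 5'TOP genes stayed above 0 under the scalings tried. In contrast, 10 of 12 snoRNA host transcripts were lower (median -0.15), with Snhg20 at -0.44 ± 0.12 (SE, adjusted p = 0.270). Of the 27 regulators around mTOR, MYC and LARP1, Deptor, an inhibitor of mTOR, had the smallest p (-0.29 ± 0.11 SE, adjusted p = 0.445). Between title numbers, 75 of 77 mitochondrial ribosomal protein genes, 109 of 127 biogenesis factors, 37 of 44 initiation factors and all 8 ribosomal proteins outside the pattern were lower in WT207 and KO209, with medians of -0.32, -0.18, -0.17 and -0.27, and 0 were called. With totals as the only scaling these medians were -0.17, -0.03, -0.03 and -0.13, in the same order. The biogenesis factors were then 69 lower and 58 higher, and the initiation factors 23 lower and 21 higher.

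**Figure D5:**
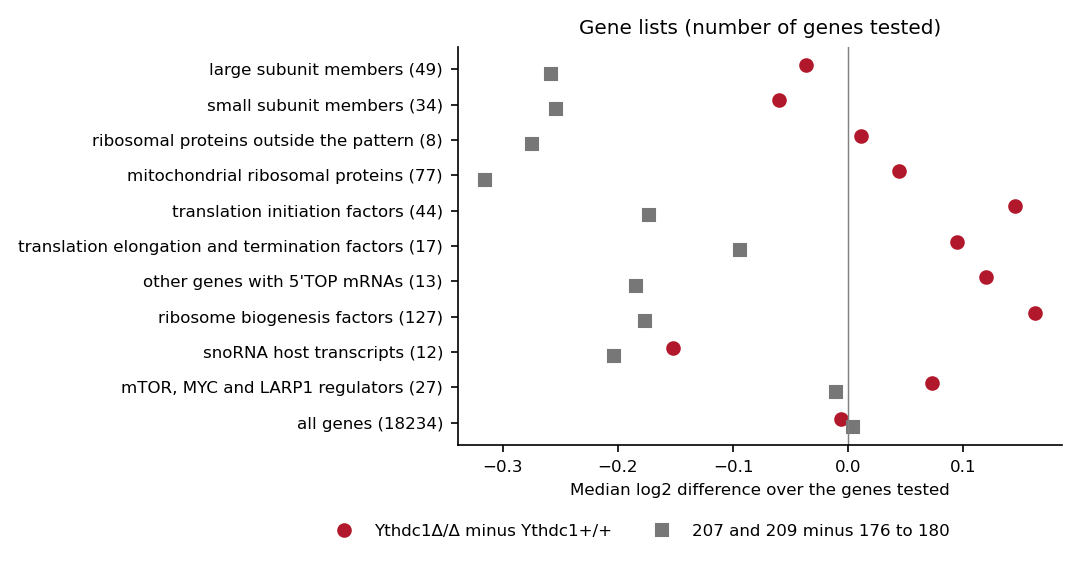
Median log2 difference over the tested genes of each list, between genotypes (red circles) and between WT207 and KO209 and the other 4 samples (grey squares). Biogenesis and initiation factors have positive and both subunits slightly negative medians between genotypes, and the lists lie under 0 between title numbers. With totals as the only scaling the elongation factors and the mTOR, MYC and LARP1 regulators turned above 0 there. The biogenesis and initiation factors were then both at -0.03.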

How the data were processed

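HSC RNA was made into cDNA with the SMARTer Ultra Low Input kit, sonicated and sequenced. The authors deposited gene counts made with featureCounts 2.0.1 on mm10 with GENCODE annotation, per the file headers as read pairs on exons, without strand, without pairs that overlap several genes and without multi-mapping pairs. Per the study's methods reads were aligned with Hisat2 2.0.4. Symbols came from GENCODE M21 for 55154 of 55335 genes. The 2 libraries of a title number were summed, genes were filtered (edgeR filterByExpr, minimum count 10, total 15) to 18234, scaled by TMM, and tested in edgeR 4.0.16 by quasi-likelihood (limma 3.58.1, R 4.3.3) with Benjamini-Hochberg adjustment over all genes, for genotype, and for the range of title numbers with genotype as a term. CPM values are TMM-scaled. TPM used the exon length of the table. Library totals were 20809936 to 24563170 counts. DESeq2 1.42.0, other scalings, filters, blocks and left-out samples were alternatives. The scripts were tested on simulated data. Genes were named by rule: the highest and lowest by TPM, those with the smallest p at 10 CPM or more in each direction, the paralogs, and up to 4 of each other list. Rpl26, Rps12, Rps3a3 and Rplp0 were named after their values were seen. Some results are not reported here. The members and lists were chosen with earlier results of these data known.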

Additional observations from a re-analysis of the deposited data

Results flagged for a closer look

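Among the 6 libraries of a genotype, the first library of WT180 stood apart as the highest for Rpl13 (3286 CPM, against a median of 2783 CPM), Rpl32 (1302 CPM, against a median of 1011 CPM), Rpl36 (506 CPM, against a median of 368 CPM), Rpl29 (262 CPM, against a median of 213 CPM), Rps27 (357 CPM, against a median of 271 CPM) and Rps18 (1424 CPM, against a median of 1099 CPM). The second library of KO177 stood apart for Rpl37a (625.1 CPM, median 442 CPM) and Rpl39l (0.456 CPM, median 0.0919 CPM). Rpl10l was at 0.0456 CPM in the second library of KO176 and at 0.0480 CPM in the first library of WT178, a single read in each, and was at 0 in the other libraries. A gap of this size (Dixon's 95% critical value) is found by chance in about 1 of 20 groups, and 60 groups were examined.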

How the results depend on the processing

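No ribosomal protein gene was called between genotypes under the alternatives except that 2 (Rps27 and Rpl39l) were called with the 12 libraries as separate samples and 1 (Rpl39l) in DESeq2. Over all genes these settings called 751 of 15551 and 221 of 18234, in the same order. Between title numbers the count of called members was 19 of 83 with the 12 libraries as separate samples, a setting that counts libraries of a number as independent, and 0 elsewhere. With separate libraries 2855 of 15551 genes were called in this comparison. Members lower between title numbers at an unadjusted p under 0.05 numbered 30 in the fit described above. They numbered 11 with totals only, 17 with the exon length trend removed and 19 with a minimum count of 50. With KO176, KO177, WT178 or WT180 left out they numbered 13 to 43. The share of all genes lower at that p, 10%, is given for the fit described above only, so the other counts have no background beside them. The median between title numbers was -0.46 to -0.077 and that between genotypes -0.13 to 0.09 when 1 sample was left out, above 0 without KO209. The range for Rpl29 between genotypes, leaving out 1 sample, was -0.0172 to 0.33, under 0 without KO176. Alternatives added after seeing the data were WT207 and KO209 alone, with a median between genotypes of -0.32, and members without copies and paralogs or without shared exon bases, which moved neither median by more than the spread between samples. Other translation genes called between genotypes numbered 0, but 12 with separate libraries and 2 in DESeq2. The difference of shares, Ythdc1Δ/Δ minus Ythdc1+/+, was -0.36 percentage points and -0.52 to -0.17 without a sample. Over all genes, 25 were called between genotypes (1 to 81 without a sample, 751 with separate libraries, 221 in DESeq2, 131 with the number as a random block, 104 with the library digit as a replicate block added, 85 with a range term, 73 without a filter, 16 with upper quartile scaling, 15 with totals only, 15 with the legacy option and 3 with a minimum count of 50) and 69, 28 of them higher, between title numbers (2 to 173 without a sample, 2855 with separate libraries, 815 in DESeq2, 219 without a filter, 199, 140 of them higher, with totals only, 119, 67 of them higher, with upper quartile scaling and 47 with a minimum count of 50). No paired analysis was possible because the title numbers of the genotypes differ. The causes were not tested. Depth limits Rpl3l and Rpl39l, at under 2 CPM.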
